A study of Rattus norvegicus with 2 samples.

Results

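Satellite glia are the cells that wrap the cell body of each sensory neuron (SN) in a dorsal root ganglion (DRG). Their transcripts were followed here through 9 listed genes, Fabp7, Glul, Slc1a3, Gja1, Apoe, S100b, Sparcl1, Cdh19 and Entpd2. Potassium channels and the filament gene Gfap, which are also known from these cells, were left out of the list by definition. A gene was included through every probe set, a group of short array probes against 1 transcript, that is paired with its symbol and no other. This gave 15 of the 31042 probe sets, for 8 of the 9 genes and of 14217 genes in all. No probe set is paired with Cdh19 in the table used here, so Cdh19, a cadherin of the Schwann cell lineage, was not analysed.

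DRGs were taken from 4-week-old female Sprague-Dawley rats (spelled Spraque-Dawley in the methods), 14 days after 100000 cells of IP-B12, a pulmonary carcinoma line of the rat that destroys bone, had been placed in the marrow of the right tibia. DRGs of the right side are called tumor-side DRGs and those of the left side, from tumor-bearing rats too, control-side DRGs. Each side is 1 GeneChip Rat Genome 230 2.0 array, and neither the number of rats behind it nor a sham injection of the left tibia is given in the sources used here. There is thus no replicate error and no test, and each difference describes these 2 arrays.

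In a ganglion, satellite glia take up glutamate through the transporter GLAST, turn it into glutamine, and are joined to each other by gap junctions, so that they buffer what surrounds the neuron. They also carry lipids and break down extracellular ATP, a transmitter released by neurons. After nerve damage or inflammation, satellite glia are known to increase their coupling through gap junctions and their content of GFAP. Several of the listed genes are not private to these cells. Schwann cells also express S100b, macrophages Apoe, fibroblasts Gja1 and endothelial cells Sparcl1. In RNA of whole ganglia, fewer cells of a type and less RNA per cell cannot be told apart.

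The satellite glia genes had nearly the same signals on both sides. The 8 measured genes ranged from a log2 ratio (tumor side over control side) of -0.03 for Apoe to 0.34 for Gja1, with a median of 0.12, which is 1.08 times higher on the tumor side. None reached a fold of 1.5 in either direction. Over the 9695 genes above the signal rule, which kept a gene if its signal reached the array median on at least 1 array, 1.19% were higher by a fold of 1.5 and 0.743% were lower. This split of 115 against 72 genes turned round with the scaling, to 73 against 106 after quantile normalization, 70 against 110 with centring and 71 against 108 after loess. All 8 satellite glia genes were above the median on both arrays. With the fold set at 1.2, Gja1 alone among the 8 was higher and none was lower, against 12.0% and 3.99% of all genes. On the tumor side 7 of the 8 were higher at any size, but so were 70.9% of all genes, whose median log2 ratio was 0.08. Compared with that median gene, 6 of the 8 lay higher and 2 lower, and S100b and Entpd2 lay within 0.01 of it.

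**Figure D1:**
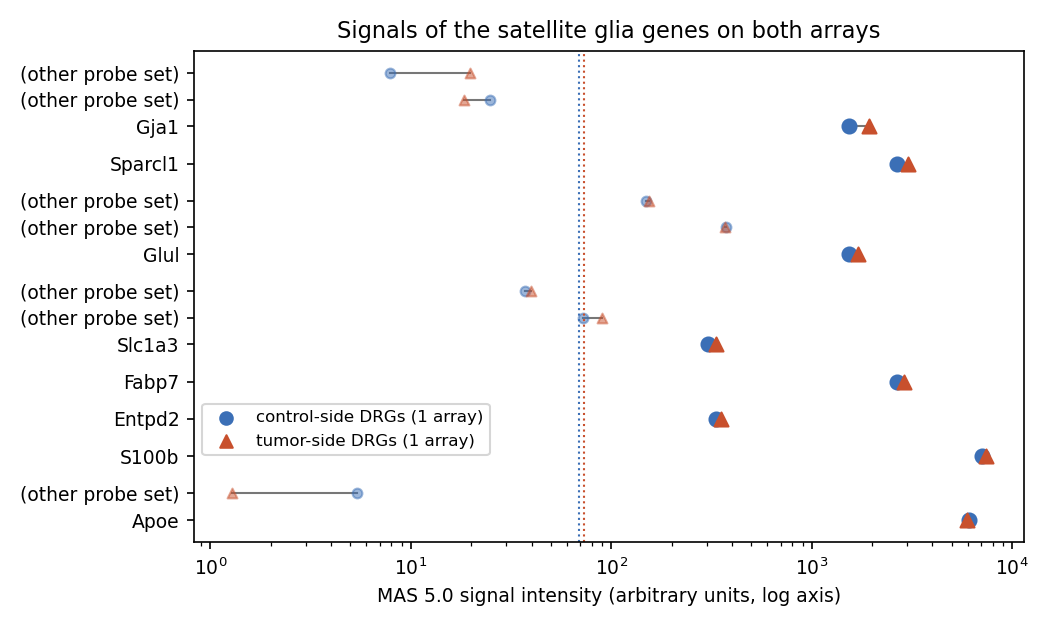
MAS 5.0 signal intensity (log axis) for each probe set of the 8 measured satellite glia genes, with the control-side array as circles, the tumor-side array as triangles, large symbols for the brightest probe set of a gene, small ones for its other probe sets, and dotted lines for the array medians of 69.0 and 72.7. The large symbols nearly coincide for all genes except Gja1 (1528 and 1932), and wide gaps appear only among probe sets left of the medians.

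Without replicates, 2 technical yardsticks were used. The first was the range that holds the middle 90% of the log2 ratios of the 500 probe sets nearest in mean signal, so that 10% of such probe sets lie outside by construction. The second was the SD among log2 ratios of different probe sets that share a gene and have a similar signal, which ran from 0.05 to 0.16 around the 8 genes. Of the 8, 7 lay inside the first range and Gja1 lay above it. Of all 15 satellite glia probe sets, 14 lay inside. By the second yardstick, 5 of the 8 differed from the median gene by less than 1 SD, and the other 3 were Apoe, Sparcl1 and Gja1. The share of all genes within 1 SD was not computed, so this count does not set these 3 apart.

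Slc1a3 and Glul belong to the uptake and recycling of glutamate. Slc1a3, the gene of GLAST, had a control-side signal of 302 and a tumor-side signal of 331, and its log2 ratio of 0.13 lay inside the range of -0.20 to 0.33 of its nearest probe sets. Its second probe set had 72.3 and 89.6 (log2 ratio 0.31), and the remaining one, dim, below the signal rule and open to cross-hybridisation, had 37.0 and 39.8 (log2 ratio 0.10). All 3 probe sets of Slc1a3 were slightly higher on the tumor side, as were 70.9% of all genes above the signal rule. Glul, the gene of glutamine synthetase, had 1538 and 1694, a log2 ratio of 0.14 inside a range of -0.07 to 0.25. Its other probe sets gave 374 and 369 (log2 ratio -0.02) and 148 and 154 (log2 ratio 0.05), which average to 0.06 with the brightest one and share no direction.

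Of 13 further genes of the glutamate and glutamine cycle, 12 had a probe set and 7 of these were above the signal rule. These 7 had a median log2 ratio of 0.03, with 1 above and 6 below the median gene, and none reached a fold of 1.5. Gls2, a glutaminase, had 421 and 483, while Slc38a2, a carrier of glutamine, had 2646 and 2591, and Slc17a6, which loads glutamate into the vesicles of neurons, stood at 3341 and 3292. Got1, a transaminase of glutamate, had 1252 and 1282, and Glud1, the glutamate dehydrogenase, had 1967 and 2013. Slc1a2, which encodes GLT-1, the other main glial glutamate transporter, was dim with 14.2 and 10.5.

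Fabp7 and Apoe handle lipids. Fabp7 encodes the brain-type fatty acid binding protein, a defining marker of satellite glia among the cells of a ganglion. Its only probe set gave 2675 for control-side and 2875 for tumor-side DRGs, a log2 ratio of 0.10 against a range of -0.06 to 0.22 for the probe sets nearest in signal. Apoe, the gene of the lipoprotein particle component apolipoprotein E, had 6098 and 5961. With a log2 ratio of -0.03 against a range of -0.06 to 0.17, Apoe was the only one of the 8 that was lower on the tumor side. A second, very dim probe set of Apoe had 5.39 and 1.28. On the tumor side this was no higher than the control probe sets for the bacterial trp transcript, whose highest signals were 5.39 and 4.63, and no fold is given for it.

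Among 17 other lipid binding and lipoprotein genes, 12 of 16 with a probe set were above the signal rule, with a median log2 ratio of 0.08, equal to that of all genes to 2 decimals, and with a range of -0.00 to 0.25. Pltp, a phospholipid transfer protein, had 119 and 141, and Lpl, the lipoprotein lipase, had 249 and 289. Apod, a lipocalin abundant in peripheral nerve, had 4861 and 5526. Fabp5, the relative of Fabp7 found in skin and in many other cells, had 6507 and 6504.

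Entpd2 encodes an ectonucleotidase that turns extracellular ATP into ADP. Its signals were 333 for control-side and 354 for tumor-side DRGs, a log2 ratio of 0.09 that differed from the median gene by 0.005. After a loess correction of the log2 ratios its value was -0.001, so no direction is given for it. Of 11 other genes of extracellular nucleotide breakdown, 8 were above the rule, with a median log2 ratio of 0.01, and 3 of them lay above the median gene and 5 below. Entpd3, a related ectonucleotidase known from SNs, had 421 and 428, and Entpd1 was dim with 4.35 and 4.69. Among its genes above the signal rule, those with the largest ratios in size were Enpp2, the gene of autotaxin, at 328 and 387, Ada, the adenosine deaminase, at 142 and 123, and Nt5e, which makes adenosine from AMP, at 93.7 and 106.

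S100b and Sparcl1 encode a calcium binding protein of glia and a matrix protein related to SPARC. S100b had 7033 and 7400, a log2 ratio of 0.07 inside a range of -0.07 to 0.16, and with log2 ratios centred on their median its value turned to -0.01. The 9 other S100 genes listed as this family had a median of 0.06. Among them S100a5 had 70.3 and 55.0 (above the signal rule on the control side alone), S100a4 1850 and 2268, and S100a13 2746 and 3242. S100a8 (345 and 151) and S100a9 (572 and 286) were listed with the granulocyte genes instead and are not in that median. S100a1, a related calcium binding protein, had 248 and 257. Sparcl1 had 2671 and 3015, a log2 ratio of 0.17 inside a range of -0.06 to 0.22, the second highest of the 8. Sparc itself had 5594 and 6305, also a log2 ratio of 0.17, and 0.23 on a second probe set. The 6 other SPARC family genes with a probe set, Sparc among them, had a median of -0.00, from Smoc1 with 107 and 95.5 to Sparc, with Spock3 at 975 and 1066 between them.

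**Figure D2:**
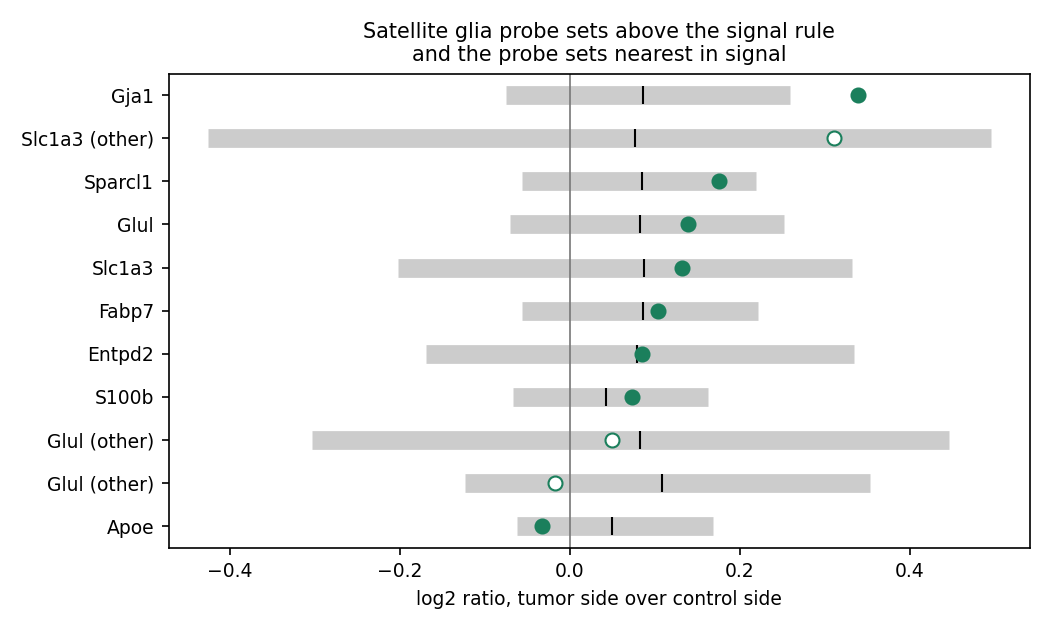
Log2 ratio (tumor side over control side) of the 11 satellite glia probe sets above the signal rule, with filled circles for the brightest probe set of a gene and open circles for the others. Grey bars hold the middle 90% of the 500 probe sets nearest in signal, and black ticks are their medians. Gja1, at 0.34 against an upper end of 0.26, is the only point outside its bar.

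Gja1, the gene of the main gap junction protein, the connexin Cx43, differed most. Its brightest probe set had 1528 in control-side and 1932 in tumor-side DRGs, a fold of 1.26, with a log2 ratio of 0.34 against a range of -0.07 to 0.26 for its nearest probe sets and a same-gene SD of 0.07. After quantile normalization, centring and loess the log2 ratio was 0.25, 0.26 and 0.26. Over all genes above the signal rule, 6.5% had a ratio at least as high, that is 630 of 9695. The other probe sets of Gja1 were dim and went opposite ways, with 24.8 and 18.4 (log2 ratio -0.43) and with 7.83 and 19.8 (log2 ratio 1.34). Both lay inside the wide ranges of equally dim probe sets, which were -0.92 to 1.07 and -1.63 to 1.87. The difference in Gja1 therefore rests on 1 probe set. Without Gja1 the highest log2 ratio among the satellite glia genes was 0.17 and their median 0.10.

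Other gap junction and pannexin genes were listed beside Gja1. Of 12 listed, 9 had a probe set and 7 were above the signal rule, with a median log2 ratio of 0.21. None reached a fold of 1.5. With the fold set at 1.2 the higher ones numbered 3 of the 7 and the lower ones 1, against 12.0% and 3.99% of all genes. The same-gene SD around the median signal of these 7 was 0.21, wider than the 0.07 around Gja1. Gja4, the Cx37 gene of small vessels, had 61.8 and 84.2 (log2 ratio 0.45). Gjb6, the gene of Cx30, had 121 and 156 (log2 ratio 0.36). Gjb1, the gene of Cx32 in myelinating Schwann cells, went the other way with 73.6 and 55.3 (log2 ratio -0.41). Gja4, Gjc1 (67.1 and 77.4) and Gjb1 each passed the signal rule through a single array, so the side on which they were brighter also decided that they were counted. Panx1, a channel through which ATP leaves cells, had 150 and 183, and no direction is given for its 2 other probe sets, with signals between 1.17 and 5.08, because each lay below the highest trp control on at least 1 array. Gjb2, the gene of Cx26, had 586 and 630, and Tjp1, a scaffold protein of cell junctions, had 1055 and 1170.

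**Figure D3:**
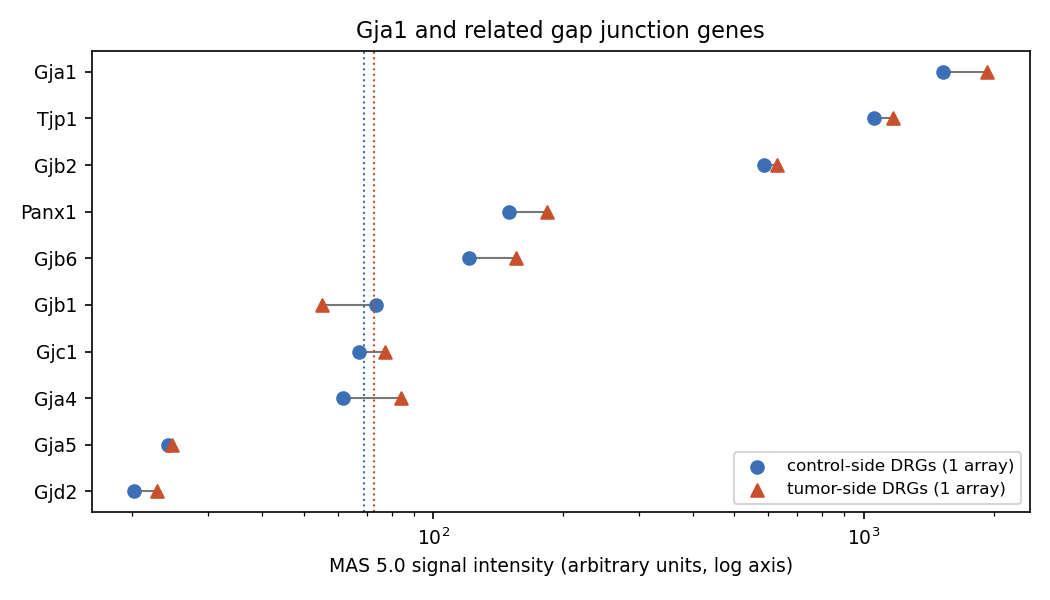
MAS 5.0 signal intensity (log axis) of Gja1 and of the 9 other gap junction and pannexin genes with a probe set, brightest probe set of each, with the control-side array as circles, the tumor-side array as triangles and dotted lines for the array medians. Gja1 moves from 1528 to 1932, and Gjb1 is the gene whose triangle lies left of its circle.

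Cells other than glia that express Cx43 were examined through their own markers. Of 12 fibroblast and meningeal genes, all above the signal rule, 9 lay above the median gene, with a median log2 ratio of 0.23 and with signals that summed to 31814 for control-side and 34669 for tumor-side DRGs. Postn, a matrix protein, had 588 and 840, Mfap4, a microfibril protein, had 213 and 293, and Slc47a1, a transporter of the meninges, had 137 and 186. Of 9 endothelial genes with a probe set, 6 were above the signal rule and 5 of these above the median gene, with a median of 0.23 and with summed signals over the 9 of 1100.0 and 1250. Esam, Eng and Cldn5, genes of the vessel wall, had 73.7 and 93.1, 81.5 and 101, and 220 and 265. No marker of either list was listed at 0. These lists and Gja1 were higher on the same array, and their part in the value of Gja1 was not tested.

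The log2 ratios of other glial genes were read in the same way. Of the 3 satellite glia genes that the list leaves out by definition, none met the signal rule. Gfap had 39.0 and 49.6 and Kcnj10, the gene of the inward rectifier channel Kir4.1, had 13.4 and 21.1. Kcnn3, a calcium-activated potassium channel, had 12.1 and 7.75. No direction is given for these 3, because ratios of probe sets this dim scatter widely. Around the dim Slc1a3 probe set (37.0 and 39.8), the range of the nearest probe sets was -0.66 to 0.76. Of 21 wider genes of satellite glia and the glial lineage, 18 had a probe set and 16 were above the rule. These 16 had a median log2 ratio of 0.09 and a range of -0.14 to 0.28, with 9 above and 7 below the median gene and none at a fold of 1.5. Sox2, a transcription factor of satellite glia, had 418 and 509. Ptgds, a prostaglandin synthase, had 4781 and 5615, and Ptn, the growth factor pleiotrophin, had 6424 and 7356. Sox10, the transcription factor that all peripheral glia share, had 182 and 176. Myelin and other Schwann cell genes, 10 above the rule, had a median of 0.12, from Egr2 with 585 and 538 to Pllp with 404 and 515, with Drp2 at 928 and 1114 and Mag, a myelin adhesion protein, at 101 and 121.

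The neurons that satellite glia enclose were read on the same arrays. The 14 SN genes above the rule had a median log2 ratio of -0.04, with 9 lower and 5 higher on the tumor side. Of the satellite glia genes 1 was lower and 7 higher, where 70.9% of all genes were higher. Some of these signs depend on the scaling, since S100b turned to -0.01 with centring and Entpd2 to -0.001 after loess. Each of these 2 genes turned under 1 of the 3 scalings only. The medians of satellite glia and SN genes were 0.05 and -0.02 after quantile normalization, and 0.04 and -0.08 after loess. Centring shifts both medians alike. The difference between the lists was not tested. The 5 higher SN genes ranged up to Uchl1, a ubiquitin hydrolase of neurons, at 3166 and 3370. Farthest from 0 were lower ones, of which Pou4f1, a transcription factor of SNs, had 311 and 247, Isl1, another, had 370 and 327, and Gap43, a gene of growing axons, had 3935 and 3582. Macrophage genes numbered 10 above the rule. By their brightest probe sets 8 had the higher signal in tumor-side DRGs and 2, Laptm5 (80.7 and 68.4) and Cd68 (88.3 and 79.6), the lower one. This Laptm5 probe set reached the array median in control-side DRGs only. A second Laptm5 probe set above the rule went the other way (log2 ratio 0.39), so no direction is given for Laptm5. The median of the 10 macrophage genes was 0.17, with Tyrobp, an adaptor of immune receptors, at 170 and 238, Csf1r, the receptor of macrophage growth factors, at 204 and 253, and C1qb, a chain of complement C1q, at 69.3 and 81.8. Of the cadherins and catenins listed as relatives of Cdh19, 9 were above the rule with a median of 0.03. Among these Ctnnd1, a catenin that binds cadherins, had 150 and 91.0, Cdh6 had 101 and 162, Cdh11 had 2025 and 2302, and Cdh2, the gene of N-cadherin, had 1399 and 1433. Genes of muscle, blood and bone differed more. Median log2 ratios were -1.44 for 10 skeletal muscle genes, -1.19 for 3 granulocyte genes, -0.38 for 3 erythroid genes and 0.98 for 6 bone and cartilage genes. Over Acta1, Myh1 and Pvalb, the 3 listed muscle genes that reached the median of each array, the median was 0.14. This is the value of Myh1, read from a probe set open to cross-hybridisation. Acta1 was lower on the tumor side (397 and 192) and Pvalb higher (1063 and 1200). Of the 10 muscle genes 7, and of the erythroid genes Alas2, reached the array median in control-side DRGs only, where they were brighter. The signal rule left out none of the muscle genes. Without a filter the medians were -1.44 for muscle genes and -0.43 for erythroid genes. The muscle genes above the rule with the largest ratios in size were Tnnc2, Myl1 and Myh4, the granulocyte genes were Np4, S100a8 and S100a9, the erythroid genes were Alas2, Ahsp and Hbb, and the bone genes were Mmp13, Bglap and Acp5. The part of such tissue in the satellite glia values was not tested.

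**Figure D4:**
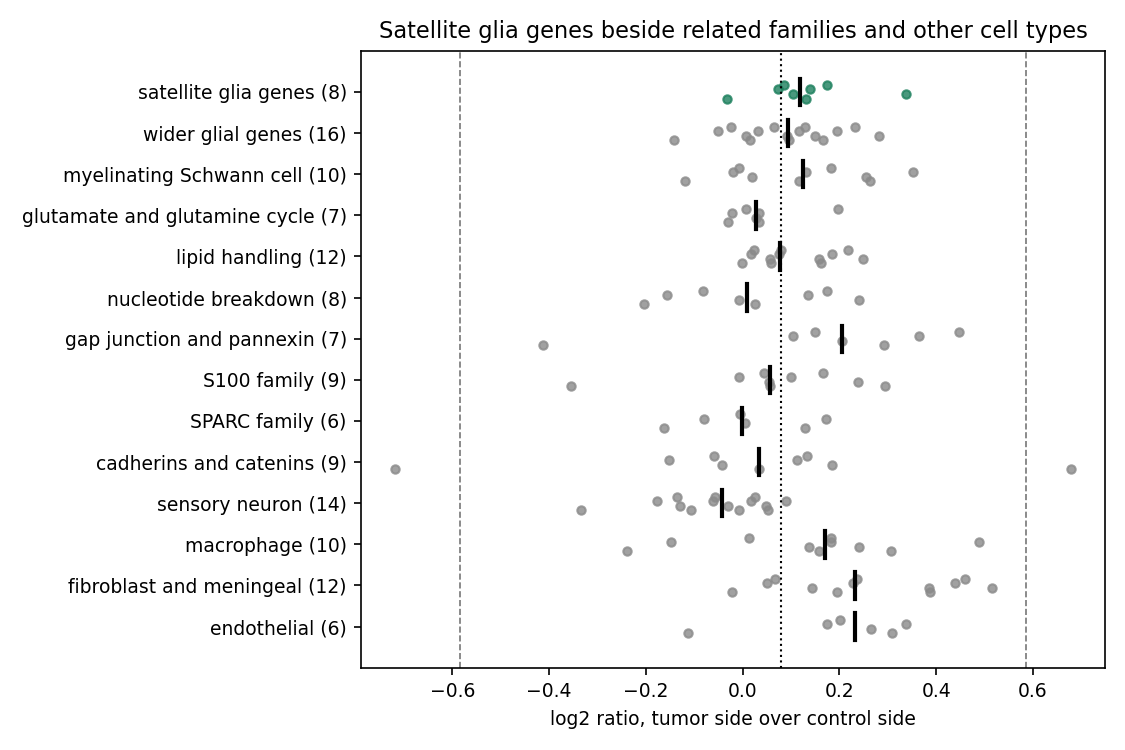
Log2 ratio (tumor side over control side) of genes above the signal rule, 1 point per gene, in the satellite glia list (green), in related families and in other cell types, with the number of genes in brackets. Black bars are list medians, the dotted line is the median of all genes (0.08) and dashed lines mark a fold of 1.5. The satellite glia genes lie between -0.03 and 0.34 with a median of 0.12, the SN genes have a median of -0.04 and the gap junction genes one of 0.21.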

How the data were processed

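RNA of DRGs from 2 sides was measured on 1 array each. From 100 ng of total RNA, 12.5 µg of biotinylated cRNA was hybridized for 16 h, and the authors used MAS 5.0 with its default settings to compute a signal intensity, deposited on a linear scale for 31099 probe sets, 57 of them controls. The scaling target and a genome build are not given in the sources used here, so no coordinates are given. Background correction and probe summary are within these values, and ratios of dim probe sets scatter widely. No detection calls were used. Signals of different genes are not compared as levels, because probe sets differ in response. The number of arrays limits the precision.

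Log2 ratios were computed without a pseudocount or further scaling. Symbols came from the platform annotation, where 20826 probe sets had 1 symbol, 436 had several and 9780 are unnamed here. Of 208 listed genes, 189 had a probe set. The brightest probe set by mean log2 signal stood for a gene. A probe set met the signal rule where its signal reached the array median on either array. The members, the 19 lists and the settings were chosen with earlier results of these data known. Named were all satellite glia genes, the up to 3 genes per list, among those above the signal rule, that had the log2 ratios farthest from 0, and close relatives of the members. Slc38a2, Slc17a6, Panx1, Gjc1, Gjb2, Tjp1, Sox10, Egr2, Uchl1, Laptm5, Cd68, Kcnn3, Acta1, Myh1 and Pvalb were chosen after their values were seen. The same-gene SD used probe sets within a fold of 2 in mean signal, from 27 to 555 genes. Alternatives were quantile normalization, median centring, loess (span 0.3), 11.1 (percentile 20 of the signals) added as a pseudocount, other signal filters, other folds, no probe sets open to cross-hybridisation, and the mean over probe sets. The computation of log2 ratios was tested on simulated data with known folds and the same noise at every signal. That test covered neither the wider scatter of dim probe sets nor the yardsticks. Software was pandas 2.3.3 and numpy 2.4.6 under Python 3.11.15, with statsmodels 0.14.6 for loess and matplotlib 3.10.9 for figures.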

Additional observations from a re-analysis of the deposited data

How the results depend on the processing

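The median log2 ratio of the satellite glia genes, 0.12, was 0.034 with median-centred log2 ratios and 0.039 with loess, since both take away the offset shared by all genes, and 0.05 after quantile normalization. It did not move by more than the same-gene SD with the pseudocount, the mean over probe sets or without Gja1. The last and the mean over probe sets above the signal rule were chosen after seeing the data. The other signal filters and leaving out probe sets open to cross-hybridisation could not move it. All 8 genes kept their brightest probe set under each of them. The count of satellite glia genes past a fold of 1.5 was 0 in each direction under every setting, except that 1 (Apoe, log2 ratio -1.05) was lower with the mean over all probe sets, which takes in its very dim probe set, and that 1 (Gja1) was higher at a fold of 1.2. Of 80 such values for single satellite glia genes, 59 stayed within the same-gene SD of the reported one and 21 did not. Many of the 59 could not differ, because the filters change no value of a bright gene. The mean over probe sets likewise changes no gene with 1 probe set. Under the 3 scalings, only Slc1a3 and Entpd2 stayed within that SD throughout. S100b did so after quantile normalization alone, and the other genes under none of them.

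Among all genes, 115 were higher and 72 lower by a fold of 1.5. Higher were 73 after quantile normalization, 70 with centring, 71 with loess, 74 with the pseudocount, 1133 without a filter, 11 with the filter at percentile 75, 60 where each signal had to reach its array median, and 330 with the mean over all probe sets, and 1167 and 13 at folds of 1.2 and 2. Lower were 106 after quantile normalization, 110 with centring, 108 with loess, 45 with the pseudocount, 889 without a filter, 10 at percentile 75, 28 where each had to reach its median, 190 with the mean over all probe sets, and 387 and 18 at folds of 1.2 and 2. More genes were thus lower than higher under each of the 3 scalings. The median of the wider glial genes was 0.0149 after quantile normalization, 0.0105 with centring and 0.0054 with loess. That of the glutamate cycle was -0.06, -0.0565 and -0.0515. Centring gave -0.0279 for the S100 family, -0.0487 for cadherins and -0.13 for SN genes, and loess gave -0.0496 for cadherins. Granulocyte genes had -0.70 without a filter and bone genes 1.43 at percentile 75. Skeletal muscle genes turned to 0.14 at percentile 75 and where each signal had to reach its array median, with 3 genes in either case. Of these, Acta1 was still lower on the tumor side (397 and 192). The other ones were Pvalb (1063 and 1200) and Myh1 (1583 and 1742), the latter read from a probe set open to cross-hybridisation. No paired analysis was possible because there is a single array for a side.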
